A study of Mus musculus with 123 samples.

Results

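Single cells were sequenced from hearts of αMHC-GFP mice, 42 from embryos at day 9.5 (E9.5), 29 from embryos at E12.5 and 52 from postnatal day 1 (P1). Of the 42, 14 had titles starting with C (set C). Among the 14, 3 cells had fewer than 3 of 8 cardiomyocyte genes at 10 counts or more, although every cell had been sorted as GFP positive. The 3 cells were chosen by these counts. Named C18-1-6, C22-1-6 and C26-1-5, they are described here one by one against the other 11 set C cells. The 8 genes were Tnnt2, Actn2, Actc1, Myh6, Myh7, Ryr2, Ttn and Nkx2-5. Because the cells were chosen on them, the values of these genes describe the choice and support nothing further.

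All groups carried the same reporter strain, in which the promoter of Myh6 (α myosin heavy chain) drives green fluorescent protein. Hearts were dissected and digested, at E9.5 and E12.5 with collagenase and at P1 with Liberase. GFP positive cells were sorted, and single cells were captured on a Fluidigm C1 chip, where each cell's RNA was amplified in its own chamber. No treatment or gene deletion was part of the design, and the 28 other E9.5 cells, named N530, were sequenced more deeply. The labels name no animal, litter or chip, so cells of one set were not taken as replicates, and levels are compared by their ranges with no test over cells.

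At E9.5 the heart is a looping tube. Its wall is contracting cardiomyocytes, its inner lining is the endocardium, an endothelial layer, and around it lie mesenchyme, the forming epicardium and pharyngeal mesoderm that still adds cells to both ends of the tube. Endothelial cells are known by adhesion molecules and receptors such as Pecam1 and Tek, mesenchymal cells by fibrillar collagens and by the Snai, Twist and Prrx transcription factors, and cardiomyocytes by sarcomere proteins. The promoter of Myh6 is a standard tool for marking cardiomyocytes.

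The 3 cells were as deeply sequenced as the others. They held 459811, 342406 and 386842 counts in the order C18-1-6, C22-1-6 and C26-1-5, against 268301 to 588443 in the 11 cells. Genes with at least 1 count numbered 4809, 4769 and 4179, within the 3811 to 5454 of the 11 cells. Levels are given as CPM, the count divided by the total of the cell and multiplied by 1000000. A count of 0 is read as a limit of 3 counts, which is 6.52, 8.76 and 7.76 CPM in the 3 cells. The CPM of the 3 cells carry exact Poisson intervals where these are printed. Reads were counted without molecular identifiers, so intervals and limits cover counting error only.

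The rule's 8 genes were nearly silent in the 3 cells. C18-1-6 had 2 counts of Actc1, the cardiac actin, and no count of the other 7 genes. C22-1-6 had 24 counts of the troponin gene Tnnt2, 2 of Actc1 and 2 of the calcium release channel gene Ryr2. C26-1-5 had 68 counts of Actc1 and 27 of Actn2, which encodes the α actinin of the Z disc. Summed over the 8 genes, the level was 4.35, 81.8 and 246 CPM in the 3 cells, against a lowest of 17059, a median of 28621 and a highest of 47607 CPM in the 11.

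Myh6, whose promoter drives the reporter, had no count in any of the 3 cells and 350 to 2948 counts in the 11. In CPM the 11 cells ran from 1004 through a median of 3377 to 5909. Myh6 is a gene of the rule, so this difference describes the choice. Nearest the threshold on the inside was C26-1-5, with 2 of the 8 genes at 10 counts. Nearest on the outside were C23-1-5 and C39-1-6, with 6 each, so no cell had 3, 4 or 5. The GFP transcript itself was not analysed here.

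**Figure D1:**
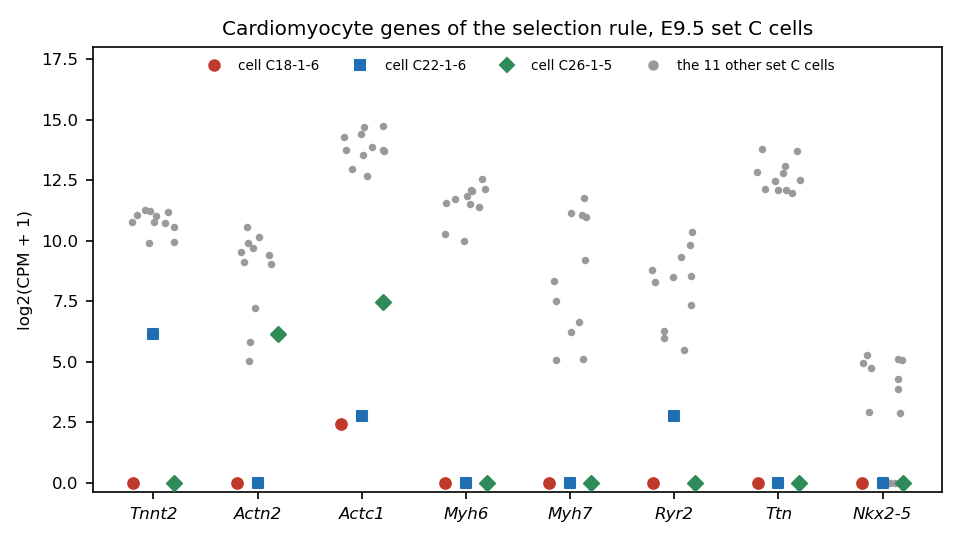
Level of each of the 8 genes of the rule, as log2(CPM + 1) on the vertical axis, in the 3 chosen cells (coloured symbols) and in the 11 other set C cells of E9.5 (grey points). The chosen cells sit at or near 0 for all genes but Tnnt2 in C22-1-6 and Actn2 and Actc1 in C26-1-5, and Myh6 and Ttn are at 0 in all 3.

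Among the other cells of the series such cells were rare. No N530 cell at E9.5 (0 of 28) and none of the 29 cells at E12.5 had fewer than 3 of the genes. At P1 1 of 52 cells did, the cell C54-no with 38 counts of Tnnt2. All 52 P1 titles start with C, as do 20 of the 29 at E12.5.

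Cardiomyocyte genes that the rule did not name were low in the 3 cells too. Of 32 further genes of this kind, 7, 3 and 3 reached 10 counts in C18-1-6, C22-1-6 and C26-1-5, against 17 to 30 in the 11 cells. Their summed level was 1166, 371 and 1174 CPM, against 22933 to 41183 in the 11. These genes move with those of the rule in heart cells, so the difference follows from the choice. Some counts remained. C18-1-6 had 264 counts of the slow skeletal troponin Tnni1 (574 CPM, lowest of the 11 2182) and 59 of the intermediate filament gene Des (128 CPM, within the 42.4 to 622 of the 11). Tpm1, a tropomyosin also made outside muscle, had 121, 37 and 285 counts. The calcium pump gene Atp2a2, likewise widely used, reached 380 CPM in C26-1-5 and 193 CPM in C22-1-6, inside the 144 to 1263 CPM of the 11. Smooth muscle genes, which are made in early cardiomyocytes as well, summed to 50.02, 17.5 and 67.2 CPM, against 2388 to 8211 in the 11, and Acta2 had 0, 1 and 4 counts.

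Transcription factors of the heart were kept in part and differently in each cell. C22-1-6 had 80 counts of Gata4, 65 of Gata6, 142 of Tbx20, 30 of Hey2 and 19 of Mef2a, all factors of heart muscle that the endocardium also uses in part. C18-1-6 had 229 counts of Mef2c (498 CPM, beside a median of 543 in the 11), 116 of Gata6 and 29 of Tbx3, and none of Gata4, Tbx5 or Tbx20. C26-1-5 had 58 counts of Myocd, a coactivator of muscle genes, and no count of Gata4, Tbx5, Tbx20 or Mef2c. Of 17 such factors, 3, 5 and 1 reached 10 counts, against 4 to 13 in the 11 cells.

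Genes of other lineages were then read list by list. For scale, the 3 cells had at least 1 count in 4809, 4769 and 4179 of all 23337 symbols. The share of all symbols at 10 counts was not computed. In C22-1-6 the list with the most genes beyond the 11 was endothelial and endocardial, and in both other cells it was mesenchymal and fibroblast. A lineage name was to be given only where no leading gene of a cell belonged to another list. Each cell had such a gene, Tcf21 of the epicardial list in C18-1-6, Stmn2 of the neural list in C22-1-6 and Fli1 of the endothelial list in C26-1-5, so the cells keep their titles. Leukocyte, megakaryocyte and endoderm lists had no count in any of the 3 cells, and no globin gene had a count. The leukocyte list did not hold Il2rg, with 156 and 350 counts in C22-1-6 and C26-1-5. Nor did it hold Itgal and Alox5ap, with 68 and 67 counts in C18-1-6. All 3 of these genes had no count in the 11 or the N530 cells. The lists of paraxial mesoderm and of germ cells had no gene at 10 counts in them, and the epithelial list 1 of 15 in each.

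**Figure D2:**
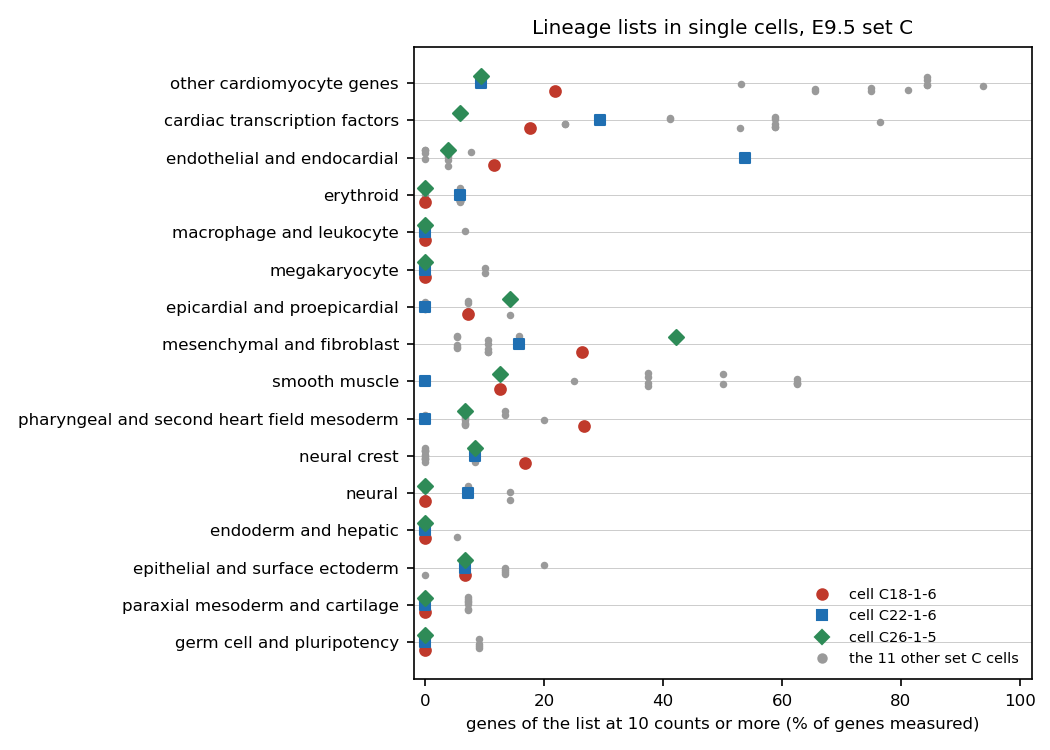
Share of the measured genes of each lineage list that reached 10 counts (horizontal axis, %) in the 3 chosen cells (coloured symbols) and in the 11 other set C cells (grey points). C22-1-6 stands apart on the endothelial and endocardial list with 14 of 26 genes, C26-1-5 and C18-1-6 lead on the mesenchymal list with 8 and 5 of 19, and all 3 are low on further cardiomyocyte and smooth muscle genes.

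C22-1-6 carried endothelial and endocardial genes. It had 14 of the 26 listed genes at 10 counts or more, against 0 to 3 in the 11 cells and 0 to 3 in the 28 deeper N530 cells. Their summed level was 4392 CPM, with at most 277 CPM in the 11 and at most 1570 in the N530 cells. Tek, the receptor of the angiopoietins, had 386 counts (1127 CPM, interval 1018 to 1246). Pecam1, the adhesion molecule at endothelial junctions, had 216 counts (631 CPM, interval 550 to 721). Neither gene had a count in any of the 11 cells, where the limit of 3 counts is 5.10 to 11.2 CPM.

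The adrenomedullin receptor partner Ramp2 had 186 counts, the TGF-β coreceptor Eng 169, the transcription factors Fli1 and Sox18 165 and 48, and the adhesion gene Icam2 37, each with no count in the 11 cells. The junction cadherin Cdh5 had 15 counts, Tie1 21 and the sialomucin gene Emcn 14, again with none in the 11 or in the N530 cells. Nfatc1, the factor known for the endocardium among endothelia, had 119 counts (348 CPM, highest of the 11 7.09). Npr3, also known for the endocardium, had 9 counts and was no mark of the cell, since 7 N530 cells had it at 10 counts or more, at up to 735 CPM. Nor was Egfl7, which 3 of the 11 cells had at up to 142 CPM.

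The list was not complete in this cell. Kdr, the VEGF receptor of most endothelia, had no count in C22-1-6, nor had Flt4, Esam, Erg, Cldn5, Sox7, Sox17, Robo4 or Etv2. Kdr was found in 5 of the 11 cells with cardiomyocyte genes, at up to 202 CPM, and in C18-1-6 with 13 counts.

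In C22-1-6 95 genes were at 100 CPM or more with no count in the 11 cells, which is 0.84% of the 11303 genes seen in set C. The same count taken for each of the 11 cells against the other 10 gave 25 to 47, with a median of 40. The leading 20 genes by CPM, an order that takes no account of gene length, held several endothelial genes from outside the list. They were Ptprb, the endothelial phosphatase that acts on Tek (314 counts), Cd34 (215 counts), the adaptor gene She (154 counts) and Ppp1r16b, a phosphatase regulator of endothelium (429 counts). Fbn1, which encodes fibrillin of the matrix, had 280 counts, the transcription factor Ebf1 252, Pilra 216, Cd38 165, Tmem43 145, B3gnt2 138 and Anxa1 136. Lower in the same set came Cxcr4 with 69 counts, the Notch target Heyl with 64 and the endothelial nitric oxide synthase Nos3 with 63.

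Some genes of C22-1-6 belonged to none of these groups. Stmn2, a microtubule regulator of neurons, had 213 counts, Grhl3, a factor of surface ectoderm, 77, and Alas2, the erythroid enzyme of haem synthesis, 54, all without a count in the 11 and the N530 cells. No globin accompanied Alas2. On the mesenchymal list the cell had 117 counts of Col5a1, 89 of Fbln2 and 51 of Vcan, and on the neural crest list 14 of Ngfr. Fn1 (fibronectin) stood at 5006 CPM, above the highest of the 11 at 398, and Mtap1b at 14789 CPM, above 9189.

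The lone P1 cell with few cardiomyocyte genes, C54-no, shared much of the endothelial list. It had 13 of the 26 genes at 10 counts, and 11 were at 10 counts in both cells, which is 78.6% of those of C22-1-6 and 84.6% of those of C54-no. Pecam1, Tek, Eng, Ramp2, Cdh5 and Emcn were among the 11 genes. Its endothelial genes summed to 13979 CPM, and it differed in age and depth (205668 counts), so the levels are given side by side only.

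C18-1-6 carried some mesenchymal genes. Of 19 mesenchymal genes 5 reached 10 counts, against 1 to 3 in the 11 cells and 1 to 8 in the N530 cells. At 1 count or more the cell also had 5 of the 19, beside 4809 of all 23337 symbols, a share not far below. Vcan, which encodes a large matrix proteoglycan, had 707 counts, but all 11 cells had it, at 56.1 to 3987 CPM, and C18-1-6 with 1538 CPM was inside that range. Without Vcan 4 of 18 genes remained, against at most 2 in the 11 cells and at most 7 in the N530 cells. Snai2, a repressor known for mesenchymal transition, had 491 counts (1068 CPM, interval 976 to 1167). It had no count in the 28 N530 cells or in the 11, where the limit of 3 counts is 5.10 to 11.2 CPM. Col1a2, a chain of the main fibrillar collagen, had 138 counts and Twist1 16, with none in the 11. Prrx1, a factor of limb and head mesenchyme, had 38 counts, where 2 of the 11 cells had it at up to 44.2 CPM. Col1a1, Col3a1, Pdgfra, Pdgfrb, Postn and Dcn had no count in the cell.

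On the list of pharyngeal and second heart field mesoderm C18-1-6 had 4 of 15 genes, against at most 3 in the 11 cells and at most 4 in the N530 cells. Their summed level of 196 CPM was inside the range of the 11, which had a median of 287 and a highest of 1488 CPM. The 4 genes were Eya1 with 32 counts, the second heart field factor Isl1 with 23, the growth factor gene Fgf10 of the same field with 18 and the forkhead factor gene Foxc1 with 15. Eya1 and Foxc1 had no count in the 11 cells, while Isl1 reached 775 CPM and Fgf10 708 CPM in cells with cardiomyocyte genes, far above the 50.02 and 39.1 CPM here. Tcf21, a factor of epicardium and of head muscle mesoderm, had 119 counts (259 CPM) with none in the 11. The epicardial genes Wt1, Upk3b and Aldh1a2 had none in this cell.

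Retinoic acid genes, a family looked up after its values were seen, reached 10 counts in 4, 0 and 4 of 15 cases in C18-1-6, C22-1-6 and C26-1-5, against at most 3 in the 11 cells and at most 4 in the N530 cells. Crabp1, which encodes a binding protein for retinoic acid and is also listed for neural crest, had 624 counts (1357 CPM, highest of the 11 39.2). The receptor gene Rara had 135 counts and Rdh10, for an enzyme that makes the precursor of the acid, 58. Of 12 crest genes 2 reached 10 counts in C18-1-6, Crabp1 and Sox9 (17 counts), against at most 1 in the 11 and in the N530 cells. The crest factors Sox10, Foxd3, Tfap2a and Tfap2b had no count in C18-1-6.

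In C18-1-6 53 genes, 0.469% of those seen, were at 100 CPM or more with no count in the 11 cells, not far above the highest count of 47 among the 11 themselves. At 50 CPM, at 200 CPM or with TMM scaling its number was inside the range of the 11. After Snai2 the leading genes were the transcription factor gene Ets1 (375 counts), the carboxypeptidase gene Cpm (288 counts), Abca5 (258 counts), Rftn2 (212 counts), the sulphatase gene Sulf1 (198 counts), the matrix gene Tnc (193 counts), Nedd9 (177 counts), Fam19a1 (172 counts) and E2f2 (164 counts), an activator of S phase genes. AA960436, Chst2, Arhgap28, Sdpr, Foxred2, Eya4, 2810408M09Rik and the FGF signalling inhibitor gene Spry1 closed the leading 20 with 88 to 155 counts each. Sdpr was less particular, with 10 counts or more in 4 N530 cells, 12 cells at E12.5 and 17 at P1. Among collagen genes outside the mesenchymal list, Col6a1 and Col9a2 had 75 and 70 counts with none in the 11 cells, and Col11a1 had 81, where 1 of the 11 had it at 75.1 CPM.

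C26-1-5 had the most mesenchymal genes of the 14 cells, 8 of 19 at 10 counts and 7 of 18 without Vcan. In the 11 cells at most 3 and, without Vcan, at most 2 did so, but the N530 cells reached 8 and 7. The N530 cells held a median of 3151946 counts against 444013 in the 11, so 10 counts is a lower level there. This holds for every count of genes at that mark in the N530 cells. Ddr2, a collagen receptor, had 161 counts (416 CPM, interval 354 to 486), Snai2 105, Col1a2 65 and Col3a1 32, all without a count in the 11. Prrx1 with 34 counts, Pdgfra, the receptor of mesenchymal progenitors, with 20 and Col5a1 with 19 were each found in 1 or 2 of the 11 as well. Twist1, Postn, Dcn and Thy1 had no count.

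On the epicardial list 2 of 14 genes were at 10 counts in C26-1-5, a count that the 11 cells reached as well and the N530 cells exceeded with up to 4. Wt1, the factor that marks epicardium, had 160 counts (414 CPM), where 1 of the 11 cells had 16 counts and 5 N530 cells had 10 counts or more, at up to 2695 CPM. Tbx18 had 24 counts (62.0 CPM), below the 302 CPM of 1 of the 11. Tcf21, Upk3b, Upk1b and Aldh1a2 had none. Wnt2, a ligand of the inflow region, had 48 counts (124 CPM), beside 6 of the 11 cells at up to 656 CPM.

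Of the 26 endothelial genes C26-1-5 had only Fli1, with 562 counts (1453 CPM, interval 1335 to 1578). The other 25, Pecam1, Tek, Cdh5 and Kdr among them, had no count in it. The 1453 CPM summed for this list in C26-1-5 was therefore Fli1 alone.

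In C26-1-5 56 genes, 0.495% of those seen, passed the rule of 100 CPM with no count in the 11 cells, beside 25 to 47 for each of the 11 themselves. At 50 CPM or with TMM scaling its number was inside the range of the 11. Ets1 (581 counts), Fli1, the cytokine receptor chain gene Il2rg (350 counts) and the sulphotransferase gene Chst2 (240 counts) led. They were followed by Tes (194 counts), the matrix gene Efemp1 (178 counts), the WNT antagonist gene Sfrp2 (173 counts), Chtf18 (167 counts), which serves DNA replication, Ddr2, Scyl2 (132 counts) and a further WNT antagonist gene, Dkk2 (131 counts). Sfrp1, found in the 11 cells at up to 335 CPM, had 242 counts here. The remaining leading genes were Grk6, Plat, Wdr35, Bmp3, Zfp420, Megf10, Snai2, Wdr62 and Ncapd3 with 101 to 127 counts. Ncapd3 was at 10 counts in 14 of the 28 N530 cells, so its absence from the 11 was no general feature of heart cells. Among retinoic acid genes, Rarb had 171 counts (442 CPM), Crabp2 50 and Crabp1 32. The 11 cells reached 200 CPM for Rarb.

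**Figure D3:**
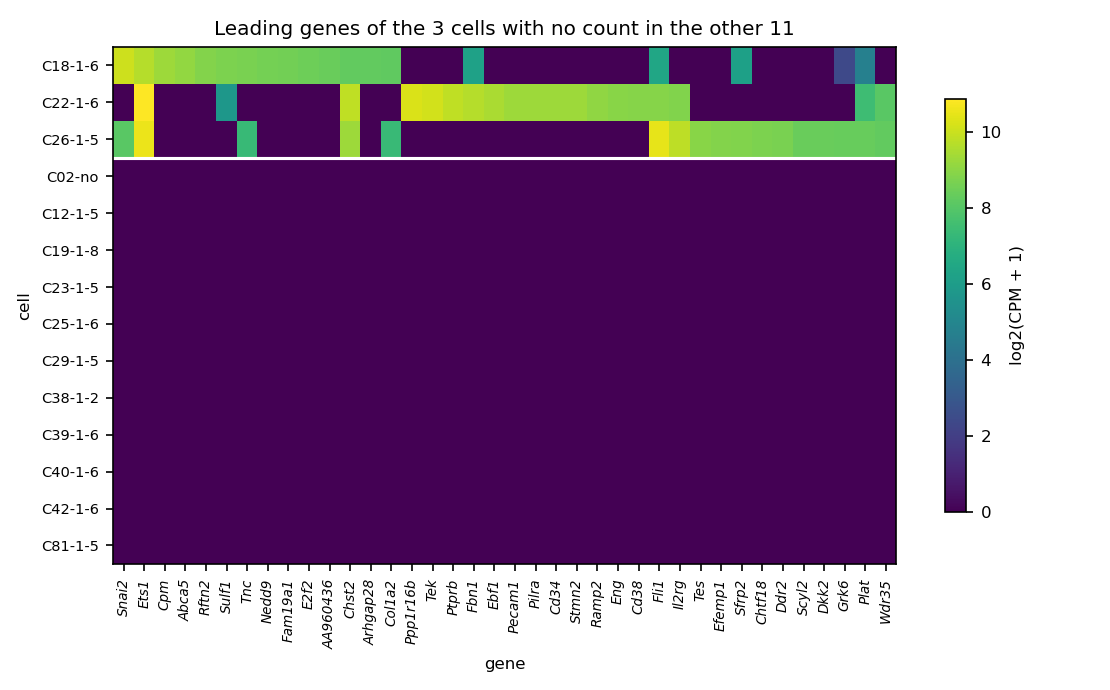
Leading genes of each chosen cell (columns, ordered by cell and then by CPM, up to 14 per cell) in the 14 set C cells (rows), coloured by log2(CPM + 1). By the rule all 11 lower rows are at 0, and among the 3 upper rows Ets1 and Chst2 are high in each cell, while Tek and Pecam1 are seen in C22-1-6 alone.

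Few of these genes were seen nowhere else. Of the 53, 95 and 56 genes, 40, 48 and 42 were at 10 counts or more in at least 1 N530 cell of the same age, and 11, 34 and 11 had no count in any N530 cell. With no count in any of the other 120 cells there remained 8, 10 and 10 genes. The N530 cells held 1437114 to 6351742 counts each, so a gene at low level could be seen there and missed in set C.

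Ets1 and Chst2 were in all 3 sets. C18-1-6 shared 7 genes with C22-1-6 and 8 with C26-1-5, and C22-1-6 shared 10 with C26-1-5. These overlaps were 7.37% to 17.9% of the sets. Snai2, Col1a2, Tnc, Plk4, Tcf19 and Peg10 were shared by C18-1-6 and C26-1-5 besides, and Fli1, Il2rg, Plat and Plxnd1 by C22-1-6 and C26-1-5. At the lower mark of 10 counts with none in the 11 cells, 405 of the 11303 genes seen were found in at least 1 of the 3 cells. Of these, 44 were in at least 2 and 5 in all 3, which were Ets1, Fli1, Chst2, Plat and Emid2. Sharing among sets of the 11 cells was not computed, so whether this sharing is unusual was not tested.

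Ets1 and Fli1 encode related transcription factors of the ETS family, known in endothelium, blood and mesenchyme. Ets1 had 375, 649 and 581 counts in C18-1-6, C22-1-6 and C26-1-5 (816, 1895 and 1502 CPM). Fli1 had 39, 165 and 562 (84.8, 482 and 1453 CPM). Neither had a count in the 11 cells, and among the 28 N530 cells Ets1 was seen in 1 (0.316 CPM) and Fli1 in 2 (at most 2.10 CPM), always below 10 counts. At E12.5 the cell C40-no had 241 counts of Ets1 with all 8 rule genes, an N523 cell had 93 of Fli1, also with all 8, and at P1 C54-no had 431 of Ets1 and 105 of Fli1. The genes are neighbours on mouse chromosome 9 of GRCm38.p6, with Fli1 from 32422204 to 32543432 and Ets1 from 32636241 to 32757820, 92809 bases apart and with no protein-coding gene annotated between them. Of the other 23 ETS family genes measured, Elk3 in C22-1-6 (103 counts), Etv5 in C18-1-6 (63 counts) and Gabpa in C26-1-5 (19 counts) reached 10 counts. Over the whole family each of the 3 cells thus had 3 genes at 10 counts, inside the 0 to 5 of the 11 and the 0 to 6 of the N530 cells, and Etv5 and Gabpa were each at 10 counts in 3 of the 11.

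Further families were looked up after their values were seen. Of 7 genes of the SNAI, TWIST and ZEB factors, 3 were at 10 counts in C18-1-6 (Snai2, Twist1 and Zeb2), none in C22-1-6 and 3 in C26-1-5 (Snai2, Zeb1 and Zeb2), against at most 2 in the 11 cells and in the N530 cells. Of 43 collagen genes 7, 6 and 5 were, against 2 to 6 in the 11 and 2 to 13 in the N530 cells. C22-1-6 had the basement membrane genes Col4a1 with 189 counts and Col18a1 with 146. Of 11 WNT antagonist genes 2, 0 and 3 were at 10 counts, against at most 2 in the 11 and at most 4 in the N530 cells. Of 39 Hox genes C26-1-5 had Hoxb3 with 61 counts, and the others were under 10 counts in all 3 cells, where the 11 and the N530 cells had 0 to 2 each. Hoxb3 itself was at 10 counts in 2 of the 11, at up to 110 CPM.

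Sarcomere genes led what the 11 cells had and the 3 lacked. Genes of the rule are among them and the others move with these, so this follows from the choice. With no count in the cell and a median of 100 CPM or more in the 11, 203 genes were absent from C18-1-6 (1.8% of those seen), 190 from C22-1-6 (1.68%) and 240 from C26-1-5 (2.12%). For the 11 cells themselves the same count ran from 64 to 212 with a median of 116, so C18-1-6 and C22-1-6 were inside that range. Absent from all 3 were 64 of the 400 genes absent from at least 1, Ttn and Myh6 of the rule and Myl4 among them. No such count was taken for sets of 3 of the 11 cells. In C18-1-6 the list was led by Myl7, Ttn, Acta2, Myh6 and Myl4, and in C22-1-6 by Myl7, Ttn, Myh6, Ankrd1 and Myl4, genes of the contractile apparatus apart from Ankrd1, a stress-responsive partner of titin. In C26-1-5 it was led by Ttn, Tnni1, Myh6, Mtap1b and Ankrd1. Mtap1b, for a microtubule protein, had a median of 2811 CPM in the 11 and 14789 CPM in C22-1-6.

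C18-1-6 and C26-1-5 stood out by genes of DNA replication. Of 20 such genes 19 and 17 were at 10 counts, against 1 to 16 in the 11 cells and 1 to 17 in the N530 cells, with 12 in C22-1-6. Their summed level was 8014 CPM in C18-1-6, 2468 in C22-1-6 and 13698 in C26-1-5. The 11 cells had 78.2 CPM at the lowest, 1218 at the median and 2752 at the highest, and the N530 cells up to 7076. In CPM, C18-1-6 and C26-1-5 thus lay above every other E9.5 cell, but with TMM scaling, which corrects for the makeup of each library, only above the 11. The cells then stood at 6855, 2392 and 12097, against at most 2487 in the 11 and 15976 in the N530 cells. C22-1-6 lay above 8 of the 11 in CPM and above all 11 in the deposited TPM (2094 against at most 2070).

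Rrm2, which encodes the small subunit of ribonucleotide reductase, had 848, 75 and 971 counts in C18-1-6, C22-1-6 and C26-1-5 (1844, 219 and 2510 CPM, highest of the 11 465). Uhrf1, which keeps DNA methylation through replication, had 440, 65 and 706 counts (957, 190 and 1825 CPM, highest of the 11 366). Mcm4, of the replicative helicase, had 540, 10 and 606 counts, and the helicase loader gene Cdc6 137, 6 and 139. The clamp gene Pcna had 332, 96 and 377 counts. In each of these 5 genes C18-1-6 and C26-1-5 exceeded all 11 cells, but over the whole list each did so in 10 of the 20 genes and C22-1-6 in 2. Over all 11303 genes seen, the share above all 11 cells was 11.1% in C18-1-6, 9.55% in C22-1-6 and 9.29% in C26-1-5, so the 2 genes of C22-1-6 were near its background. Above all 39 other E9.5 cells stood 3, 1 and 5 of the 20 genes in C18-1-6, C22-1-6 and C26-1-5, beside 3.77%, 3.8% and 3.37% of all genes seen. Ccne1, the cyclin of S phase entry, had 178 counts in C18-1-6 and none in the other 2. Without Rrm2, Uhrf1 and Mcm4 the sums were 4039, 2030 and 7796 CPM, against at most 2646 in the 11 and at most 4528 in the N530 cells, so that C18-1-6 no longer lay above every N530 cell.

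Of 22 mitosis genes 7, 2 and 9 reached 10 counts, and their sums of 946, 93.5 and 2324 CPM were inside the range of the 11, which ran from 0 to 9512 CPM with a median of 656. C18-1-6 lay above 7 of the 11 cells, C22-1-6 above 3 and C26-1-5 above 9. Top2a had 80, 0 and 237 counts and Ccnb1 0, 0 and 217. Beside these lists, housekeeping genes summed to 67330, 54213 and 70225 CPM in the 3 cells, against 22062 to 54533 in the 11. Actb alone gave 33279, 36839 and 53376 CPM against 3770 to 33810. The TMM factors of the 3 cells differed from the median of the 11 by 0.12, -0.06 and 0.07 on the log2 scale. Stress and immediate early genes summed to 120, 172 and 93.1 CPM, above 1 of the 11 cells only.

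**Figure D4:**
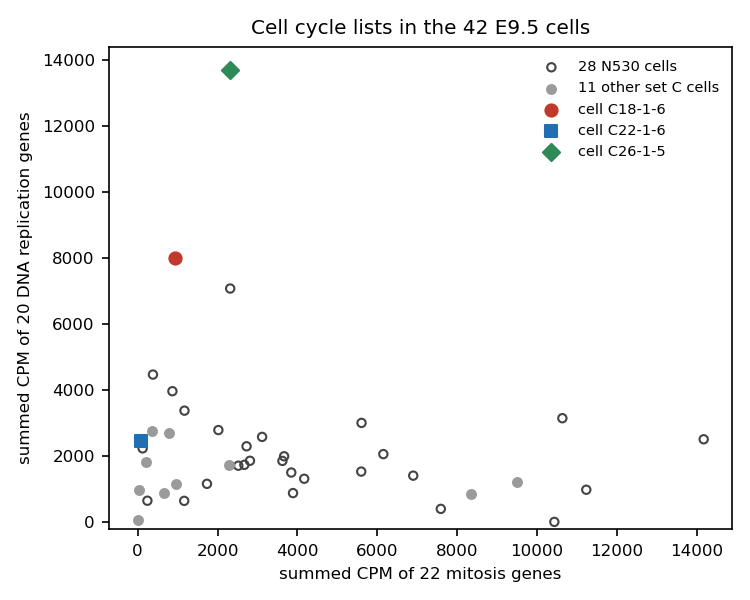
Summed CPM of 22 mitosis genes (horizontal axis) and of 20 DNA replication genes (vertical axis) in the 42 E9.5 cells, with the 3 chosen cells coloured, the 11 other set C cells filled grey and the 28 N530 cells as open circles. C26-1-5 at 13698 and C18-1-6 at 8014 CPM of replication genes lie above all other cells on this scale, though only above the 11 with TMM scaling or, for C18-1-6, without the 3 leading genes of the list, while C22-1-6 at 2468 CPM lies among them.

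Over the whole profile, cardiomyocyte genes included, the 3 cells were less like the 11, by the median, than these were like each other. The genes of the rule are part of that profile, so the difference follows in part from the choice. Pearson's r of ln(counts per 10000 + 1) was computed over the 12194 genes found in at least 3 cells of the series. It is given as a description, since the genes are not independent and the cells share their chemistry and the abundance of common genes. The median r with the 11 cells was 0.504 for C18-1-6, 0.521 for C22-1-6 and 0.506 for C26-1-5. The 55 pairs of the 11 ran from 0.514 to 0.693 with a median of 0.594, and the lowest median of a single cell was 0.544, in C81-1-5. Leaving out the 40 cardiomyocyte genes brought C22-1-6 (0.534) past the lowest median among the 11, then 0.533. C18-1-6 (0.520) and C26-1-5 (0.516) stayed below it.

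Among themselves the 3 cells were at 0.589 (C18-1-6 with C26-1-5), 0.557 (C22-1-6 with C26-1-5) and 0.535 (C18-1-6 with C22-1-6). The closest of all 122 other cells was C26-1-5 for both C18-1-6 and C22-1-6, and C18-1-6 for C26-1-5. All these values lie within the range of the 11 cells' own pairs.

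**Figure D5:**
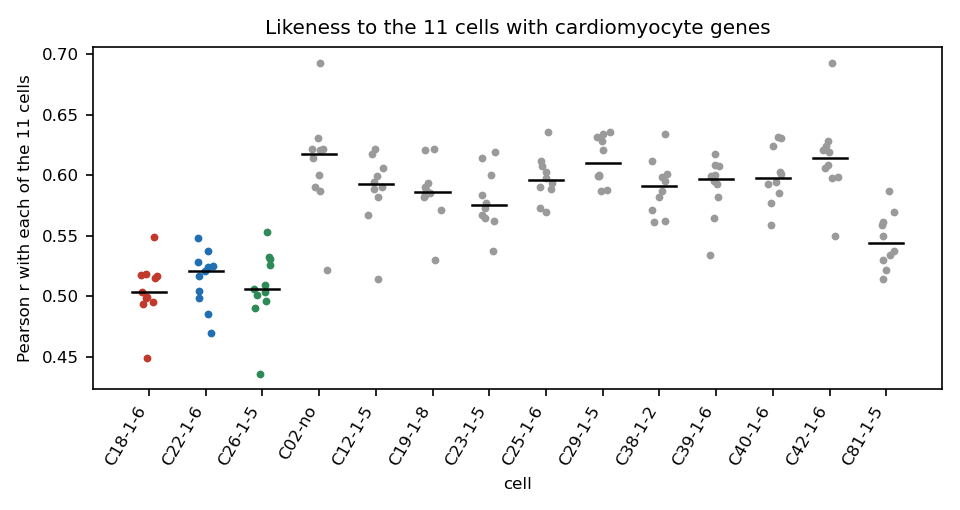
Pearson's r between each set C cell (horizontal axis) and each of the 11 cells with cardiomyocyte genes (points, vertical axis), over 12194 genes, with the median as a bar. The 12194 genes include the cardiomyocyte genes on which the cells were chosen. The medians of the 3 chosen cells (coloured) are 0.504, 0.521 and 0.506, below the medians of the 11 (grey), of which C81-1-5 is lowest at 0.544.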

How the data were processed

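GFP positive cells were sorted, and a Fluidigm C1 instrument was used to isolate single cells and amplify their cDNA (SMART-Seq V4). Nextera XT libraries were read from one end, 75 bases long, on a NextSeq. Mapping by the authors used OLego, and featureCounts gave read counts per gene symbol on GRCm38 (mm10). The deposited files hold raw read counts and, computed from them by the authors, TPM for 23337 symbols in 123 cells. Some 25 symbols read as dates and were not named. The kit does not mark strand, so reads of a gene and of an antisense or overlapping partner cannot be told apart.

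Counts were divided by the total of the cell to give CPM (Python 3.11.15, pandas 2.3.3, numpy 2.4.6). Exact Poisson intervals at 95% came from scipy 1.17.1, and TMM factors from edgeR 4.0.16 in R 4.3.3, with no test. A gene was called for a cell at 100 CPM or more with 0 counts in the 11 others. This call was tested on simulated counts with known genes. Gene positions are from RefSeq on GRCm38.p6.

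The members and the 21 gene lists (lineages, replication, mitosis, stress, housekeeping) were chosen with earlier results of these data known, and 7 gene families (ETS, Snai and Zeb, collagen, Hox, WNT antagonist, retinoic acid and imprinted genes) after their values were seen. Named genes were the 8 of the rule, the 20 leading called genes of each cell, members of its leading list, 5 leading absent genes and members of other lists that decide a value. A few further called genes were named after their values were seen. Alternatives were other count and CPM marks, thinning to 100000 counts, TMM, TPM and Spearman's correlation.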

Additional observations from a re-analysis of the deposited data

How the results depend on the processing

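The choice of cells held at 20 counts, at 20 CPM and after thinning, with 3 cells each time, and gave 2 cells at 1 count, since C22-1-6 had 3 of the genes at that mark. The numbers of genes called for 1 cell, in the order C18-1-6, C22-1-6 and C26-1-5, depended on the mark. At 200 CPM they were 19, 47 and 30, and the first lay inside the 11 to 24 of the 11 cells themselves. At 50 CPM C18-1-6 had 90 and C26-1-5 had 89, inside 48 to 98. With TMM they had 46 and 47, inside 24 to 49, while C22-1-6 stayed above the 11 cells at each of these marks. Allowing a gene in 1 of the 11 cells gave 142, 169 and 134, the last inside 79 to 135, and asking for no count in the N530 cells gave 11, 34 and 11. Absent genes at a median of 200 CPM numbered 86, 82 and 107. Spearman's correlation with the 11 cells was 0.401, 0.414 and 0.401, beside 0.458 for pairs of the 11. TMM, TPM, thinning and leaving out the 3 leading genes, added after seeing the data, left C18-1-6 and C26-1-5 above the 11 cells in replication genes, though not always above the N530 cells. No paired analysis was possible because the results come from no test. With 1 cell per profile, low genes can be missed by chance of capture, so a count of 0 at this depth does not show absence.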

Other observations

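Imprinted growth genes, a family looked up after its values were seen, reached 10 counts in 13, 10 and 14 of 15 cases in C18-1-6, C22-1-6 and C26-1-5, against 8 to 11 in the 11 other set C cells and 7 to 13 in the N530 cells of E9.5. In C22-1-6 Cdkn1c, an inhibitor of the cell cycle, stood at 8642 CPM, above the highest of the 11 cells at 3910. The noncoding H19 stood at 5029 CPM against at most 782, and its neighbour Igf2, a fetal growth factor, at 2185 against at most 722, though N530 cells reached 3899 CPM of H19 and 3018 CPM of Igf2. Igf2r, the receptor that clears it, was inside the range of the 11 with 6939 CPM. In C18-1-6 and C26-1-5 H19 had 53 and 636 counts, and Peg10, with no count in the 11 cells, had 69 and 39, and 9 N530 cells had it too, at up to 581 CPM.

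Sox11, a factor of progenitor cells, stood at 3997 CPM in C18-1-6 and 8551 in C26-1-5, both above the highest of the 11 at 2867. The N530 cells reached 4799 CPM, above C18-1-6. It stood at 231 CPM in C22-1-6, below the lowest of the 11 at 261.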
